A study of Petromyzon marinus with 6 samples.

Results

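The 304 transcript units described here were present in early sea lamprey embryos and stood at no more than 25% of their early level from day 3 on. They were chosen from 87262 units, of which 6011 were abundant early. Sea lampreys (Petromyzon marinus) are jawless vertebrates, and RNA of whole embryos was read in 6 paired-end libraries, 3 of them at days 1, 2 and 2.5 after fertilization and the others at days 3, 4 and 5, with 1 library each. All embryos belong to the single series of stages, with no treatment or genotype named in the labels, and the number of embryos and their parents behind a library are not stated there. With 1 library per stage no difference has a replicate check and no p-value is given. Intervals are exact 95% Clopper-Pearson limits and cover counting error only.

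An animal egg is loaded with RNA made by the mother, and the embryo first develops on that stock. During the maternal-to-zygotic transition the embryo removes many of these maternal RNAs and switches on its own genome. Removal is known from other vertebrates to come in waves, one run by maternal factors and a later one that needs transcription by the embryo. Sea lampreys are also known for programmed loss of some germline DNA from the somatic cells of the embryo. Whether any unit described here is maternal, or lies in eliminated DNA, was not measured.

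A unit is an assembly component, meaning all contigs of a de novo assembly that share an identifier up to the sequence number. Its level is given in CPM, a component's expected counts scaled to a common library total, which ranged from 15503408 at day 5 to 21910029 at day 1. A component was a member when it had 20 CPM or more at each of days 1, 2 and 2.5, here called the early days. Its CPM at each of days 3, 4 and 5, the late days, had to be at most 25% of the lowest early value, with 3 or more counts at day 4 or day 5. These same 6 libraries chose the members, so the drop itself is a description and not a finding. None of the identifiers matches any of the 45433 genes of the reference name table, so no gene name, protein or sequence can be attached to a member.

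The scaling of the libraries bears on these values. Total-count scaling gives the tested components with counts on both days a median log2 change of -0.50 between days 2.5 and 3, a shift that the TMM scaling of edgeR, which evens out library composition, reduces to -0.04. Under TMM, 82 of the 304 meet the same rule, and under the DESeq2 size factors 54 do. The total amount of RNA per embryo was not measured, so fewer molecules of a transcript and more of all others cannot be told apart.

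As a group the members went from 5.24% of all counts at day 1 to 0.216% at day 4. Their summed share was 3.83% and 3.37% at days 2 and 2.5, then 0.638% at day 3 and 0.245% at day 5. The median member had 89.2, 64.0 and 59.9 CPM on days 1, 2 and 2.5, and 10.5, 3.98 and 4.97 CPM on days 3, 4 and 5. The early decline, the steep step to day 3 and the further decline to day 4 can all be seen in these medians, whereas day 5 lies slightly above day 4. Over the same days the median of the 5707 other components with 20 CPM or more at all 3 early days went from 65.8 to 65.7, 65.7, 44.7, 33.8 and 37.4 CPM.

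**Figure D1:**
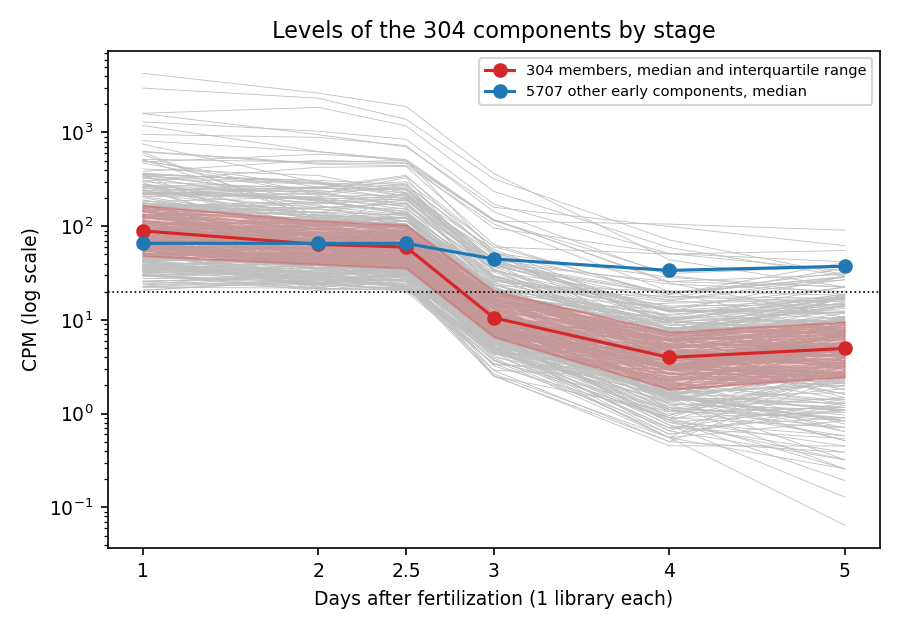
CPM (log axis) against day after fertilization for each of the 304 members (grey lines), with their median (red points) and interquartile range (red band), and the median of 5707 other early components (blue). The dotted line marks the floor of 20 CPM. The red median goes from 89.2 CPM at day 1 to 3.98 CPM at day 4, while the blue median goes from 65.8 to 33.8 CPM.

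The choice of limits matters, because many members lie near them. The highest late level was above 20% of the lowest early level in 185 of the 304 members and at most 12.5% in 12. The member nearest the late limit reached 24.95% and the nearest component outside it 25.04%. At the early floor the nearest member had 20.06 CPM on its lowest early day, and the nearest component outside had 19.95 CPM. The demand for 3 counts at day 4 or day 5 removed 0 components. Of the 399 early components that met the limit at day 3, 95 were above it again at day 4 or day 5. The median of these 95 was 40.3 CPM at day 2.5, and 8.14, 7.81 and 15.4 CPM on days 3, 4 and 5.

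The most abundant member, a single contig of 3311 nt, was the fourth most abundant of all components in the day 1 library. It had 4277, 2633 and 1893 CPM on the early days in turn, and 366, 43.9 and 22.4 CPM on the late days. Its level was lower at each later day, and at day 5 it was 191-fold below day 1. By day 5 it ranked 5318 among all components. The member next in abundance, with 3 contigs and a longest contig of 2535 nt, went through 2981, 2323, 1380, 320, 71.4 and 30.4 CPM from day 1 to day 5. The third, a single contig of 1752 nt, had early levels of 1604, 1856 and 1175 CPM and late levels of 236, 59.2 and 29.4 CPM. Unlike the first and second, it was highest at day 2.

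The other 7 of the 10 most abundant members differed in how much was left at day 4. The fourth, a contig of 5073 nt, kept 99.4 CPM at day 4 after 159 CPM at day 3, and still had 62.0 CPM at day 5. The seventh, with 4 contigs, went from 511 CPM at day 2.5 to 53.4, 5.34 and 4.52 CPM on the late days. These 2 members were closer in level at day 2.5, with 703 CPM in the fourth against 511 CPM in the seventh. They were further apart at day 3 (159 and 53.4 CPM) and further still at day 4 (99.4 and 5.34 CPM). The step from day 3 to day 4 had a ratio of 0.624 in the fourth (95% counting interval 0.590 to 0.660) and of 0.09996 in the seventh (0.0811 to 0.122). The eighth, a contig of 3632 nt with 493 CPM at day 2.5, was the only 1 of the 10 with a higher level at day 5 (37.2 CPM) than at day 4 (31.3 CPM), with a ratio of 1.19 and an interval of 1.06 to 1.33. The members of rank 5, 6, 9 and 10 had 848, 727, 516 and 469 CPM at day 2.5, and 41.7, 18.7, 10.6 and 22.7 CPM at day 5. Together the 10 held 30.2% of the members' counts at day 1 and 11.4% at day 5.

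**Figure D2:**
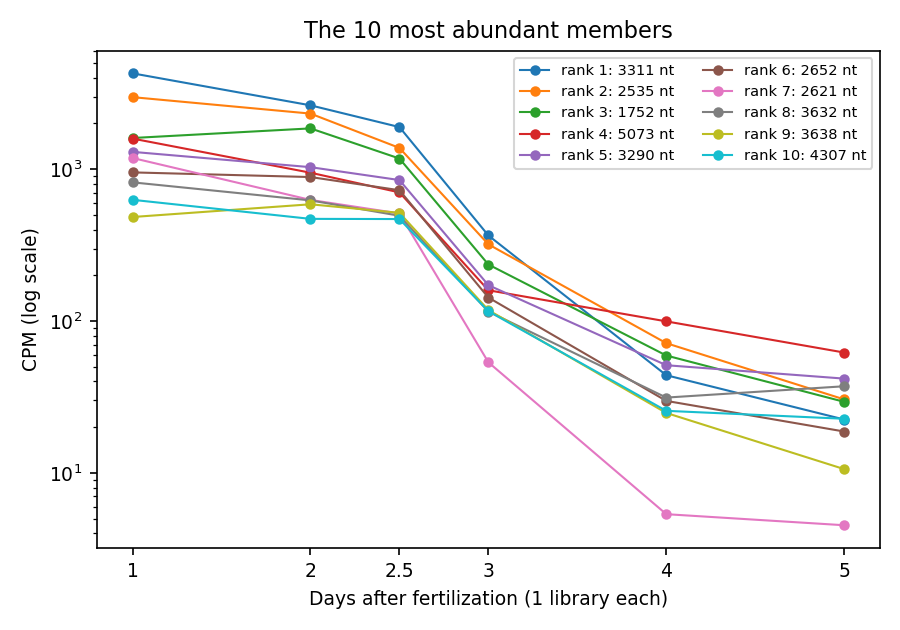
CPM (log axis) against day after fertilization for the 10 members with the highest mean CPM over days 1, 2 and 2.5, labelled by rank and longest contig. All 10 lie between 469 and 1893 CPM at day 2.5, and the member of rank 7 is lowest from day 3 on, at 53.4 CPM on day 3 and 4.52 CPM on day 5.

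The deposited TPM is a per-length scale, which allows levels to be compared between transcripts. On it the order of the first 3 was kept at day 1 but changed at days 2 and 2.5. The third member had 1330 TPM at day 2.5, above the first (1105 TPM) and the second (1092 TPM). Highest of all members on that day was the member of rank 11, a contig of 684 nt, with 1412 TPM. The median member had 81.9 TPM at day 1 and 50.8 at day 2.5, but 2.74 TPM at day 4. The members held 4.60% of all TPM at day 1 and 0.164% at day 4.

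Before the steep step, many members already had a lower level at day 2 than at day 1. A step is called here when the CPM ratio passes 2-fold and its counting interval excludes 1. From day 1 to day 2, 41 of the 304 members were called lower and 0 higher. The background was 10.9% lower and 19% higher among all 31119 components with 60 or more counts over the 6 libraries. Among the 5707 other early components, 4.56% were called lower and 2.17% higher, against 13.5% and 0% of the members. The median member changed by -0.33 on the log2 scale, and TMM gave the members -0.34. The median was 0.08 for the other early components and 0.13 for all tested components. For the tested components with counts on both days, as every member had, it was 0.02. The rule sets no direction among the early days, but its late limit is taken from the lowest early value. A member higher at day 2 than at day 1 thus had to drop more than 4-fold from day 2 to every late day. The rule therefore bears on the 0 higher, on the share called lower and on the median change. These values and the contrasts with the other components are given as a description. Without any size limit, 211 members had an interval wholly below 1 and 48 wholly above it. By the same measure 25.9% of all tested components were lower and 34.1% higher, and 33.5% and 46.8% of the other early ones.

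Between days 2 and 2.5 the members changed little. A single member was called higher and a single one lower, beside backgrounds of 9.72% higher and 4.76% lower among all tested components, and 0.736% and 0.683% among the other early ones. The member called higher had 2 contigs and had 191, 91.2 and 232 CPM on the early days, so that day 2 stood below both of its neighbours. Its ratio of day 2.5 to day 2 was 2.54 (2.40 to 2.69). At day 3 it had 20.3 CPM, which is 8.75% of its day 2.5 level and 22.2% of its lowest early level, at day 2.

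Over the whole early period, days 1 to 2.5, 56 members were called lower and 0 higher. The background was 11.7% lower and 21.9% higher among all tested components, and 6.45% and 3.45% among the other early ones, while 18.4% of the members were lower. A member higher at day 2.5 than at day 1 had to drop more than 4-fold from day 2.5 to day 3. The rule thus bears on the 0 higher, and these shares are given as a description. Day 1 was the highest early day in 202 members, day 2 in 59 and day 2.5 in 43. The rule bears on these counts too, and like counts for the other components are not given, so nothing is read from them. The 56 called lower had a median of 149 CPM at day 1 and 60.1 at day 2.5, and the other 248 had 77.1 and 59.9. The 2 sets thus had nearly the same median just before the steep step.

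The members that were lowest at day 2.5 relative to day 1 were comp251694_c1 and comp280868_c0. The first, a contig of 2030 nt, had early levels of 355, 62.1 and 44.2 CPM and late levels of 10.6, 1.82 and 9.999 CPM. Its ratio of day 2.5 to day 1 was 0.124 (0.116 to 0.134). It was lowest at day 4, and its level at day 5 was 5.49 times that at day 4 (3.81 to 8.16), from 36 and 155 counts. At day 5 it was still at 22.6% of its lowest early level. The second, of 2 contigs, had 580, 130 and 95.4 CPM on the early days, and 22.5, 4.27 and 3.68 CPM on the late days. Its ratio of day 2.5 to day 1 was 0.164 (0.156 to 0.173), and unlike the first it was not higher at day 5 than at day 4.

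The members that were highest at day 2.5 relative to day 1 were comp289392_c0 and comp249884_c0, both single contigs. The first, of 3009 nt, had early levels of 303, 426 and 434 CPM and late levels of 63.9, 17.7 and 15.6 CPM. Its ratio of day 2.5 to day 1 was 1.43 (1.38 to 1.48), most of which lay between days 1 and 2. The second, of 1177 nt, had 44.8, 40.7 and 62.2 CPM early and 7.32, 1.11 and 2.39 CPM late. Here day 2.5 stood above both earlier days, with a ratio to day 1 of 1.39 (1.27 to 1.51). No member was as much as 2-fold higher at day 2.5 than at day 1, a rise on which the rule bears as said above.

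Between days 2.5 and 3 all 304 members were lower by at least 4-fold, as the rule requires. By the same 4-fold call 11.9% of all tested components and 3.56% of the other early components were lower, and nothing is read from this contrast. The median member kept 18.8% of its day 2.5 level, with a range of 7.70% to 24.9%. More than 10% was left in 296 members, and every member had at least 52 counts at day 3. The word cleared therefore fits day 3 only in part: these RNAs were much lower but still counted, and 79 members remained at 20 CPM or more.

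The smallest share left at day 3 was in a single contig of 1841 nt, with 32.5 CPM at day 2.5 against 2.50 at day 3, a ratio of 0.0770 (0.0568 to 0.102). Next came a contig of 2372 nt with 60.2 CPM at day 2.5 and 4.96 at day 3. At the other end a member of 3 contigs, the longest of 5109 nt, had 208 CPM at day 2.5 and 51.9 at day 3, a ratio of 0.249 (0.232 to 0.266). The next 2 had ratios of 0.249 and 0.248, which the rule caps at 0.25.

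**Figure D3:**
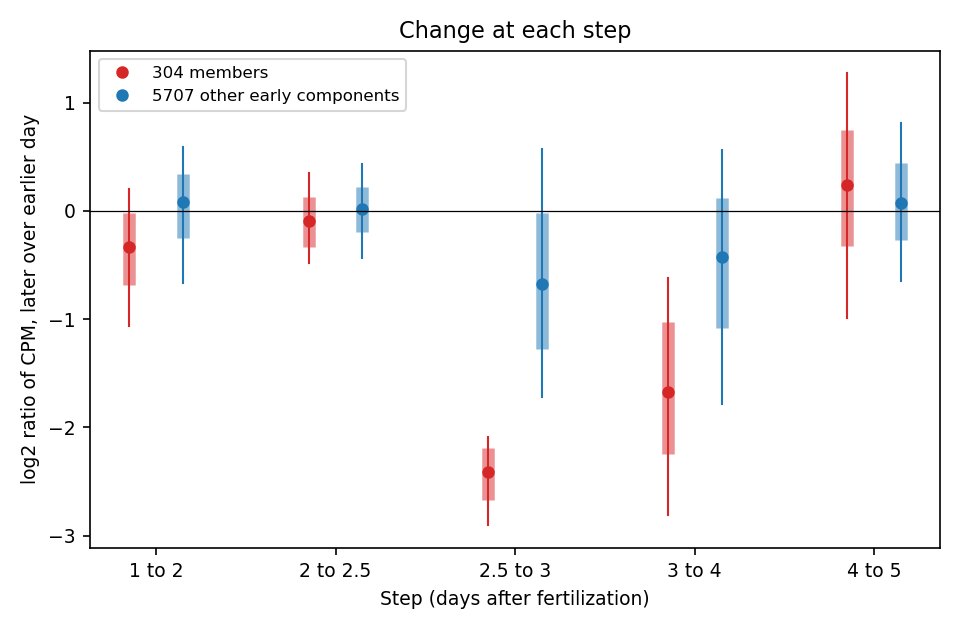
Log2 ratio of CPM, later over earlier day, at each of the 5 consecutive steps for 304 members (red) and 5707 other early components (blue). Points are medians, thick bars interquartile ranges and thin lines the 10th to 90th percentiles across components, which are not replicates. The members' median lies at -0.33, -0.09, -2.41, -1.67 and 0.24 from left to right. The other early components' median lies at 0.08, 0.02, -0.67, -0.42 and 0.07.

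The decline went on after day 3. From day 3 to day 4, 231 members (76.0%) were called lower and 0 higher, beside 21.8% lower and 14.1% higher among all tested components and 27.3% and 3.1% among the other early ones. The median member was 3.18-fold lower at day 4 than at day 3, against 1.34-fold for the other early components and 1.11-fold for all tested ones. With TMM 218 members and with DESeq2 size factors 206 were called lower. The background shares above are on total counts, and none is given under these scalings. Tested components with counts on both days had a median log2 change of -0.15 on total counts. It was -0.05 with TMM and 0.06 with DESeq2 size factors. The rule bears on this step as well: it does not ask day 4 to lie below day 3, but its limit left room for a 2-fold rise after day 3 in only 12 of the 304. The count of 0 higher is therefore fixed largely by the choice of members, components that rose past the limit were left out, and the shares beside it are given as a description. The level at day 4 was below that at day 3 in 301 members. No like count is given for other components, so nothing is read from it.

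After day 4 some members were called higher and others lower, in shares near those of all tested components. From day 4 to day 5, 52 members were called higher and 27 lower, beside 14.2% higher and 10.9% lower among all tested components and 6.13% and 5.03% among the other early ones. The limit left room for a 2-fold rise after day 4 in 269 members. The members' 17.1% and 8.88% lie above the other early components in both directions, while both are near the shares of all tested components. The other early components had a median of 33.8 CPM at day 4, against 3.98 CPM in the members. The 2 sets were thus not matched for counting error. With DESeq2 size factors 36 members were higher and 36 lower. That scaling gave the tested components with counts on both days a median log2 change of -0.13, and the background shares above are on total counts. Counts were few at these days, with a median of 79 at day 4 and 77 at day 5. At day 5, 2 members had fewer than 3 counts.

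Members that were higher again at day 5 stayed far below their early level, as the rule requires of every member. The 52 had a median of 49.0 CPM at day 2.5 and of 8.10, 2.34 and 7.16 CPM on the late days. Of the 52, 50 had been called lower from day 3 to day 4, beside 76.0% of all members and 69.8% of the 225 with neither call. Both steps share the day 4 library, so a low value there gives both calls. The 27 called lower at day 5 had 75.4 CPM at day 2.5 and then 13.0, 3.53 and 1.48 CPM. Their longest contigs had a median of 1781 nt, against 2970.5 nt in the 52 and 2621 nt in the 225 with neither call. No test was made of this difference in length.

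Between days 3 and 5 as a whole, 160 members were called lower and 0 higher, beside 22.8% lower and 20.8% higher among all tested components and 24.4% and 6.19% among the other early ones. The same 12 members alone had room for a 2-fold rise, so the 0 higher follows largely from the rule and nothing is read from it. Day 5 lay above day 3 in 22 members. The highest was a member of 3 contigs with 58.3 CPM at day 2.5 and 8.47, 7.81 and 14.0 CPM on the late days, a ratio of day 5 to day 3 of 1.65 (1.35 to 2.03). The next was a contig of 2790 nt with late levels of 5.92, 2.32 and 9.22 CPM. The third, a contig of 1472 nt, had 2.65, 0.554 and 4.06 CPM on these days.

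Other members were nearly gone by day 5. The lowest was a contig of 1237 nt with 22.9, 31.1 and 21.4 CPM early and 4.53, 0.554 and 0.0645 CPM late, the last from 1 count. Its ratio of day 5 to day 3 was 0.0143, with a 95% counting interval of 0.000357 to 0.0814. A member of 33 contigs was left with 270, 25 and 4 counts on the late days. A contig of 906 nt was left with 116, 15 and 2 counts. In all, 28 members were under 1 CPM at day 4 and 34 at day 5. Another count, of members lower at every consecutive step from day 1 to day 5, was 46. The rule fixes the step from day 2.5 to day 3 and bears on others. No like count is given for other components, so nothing is read from the 46.

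**Figure D4:**
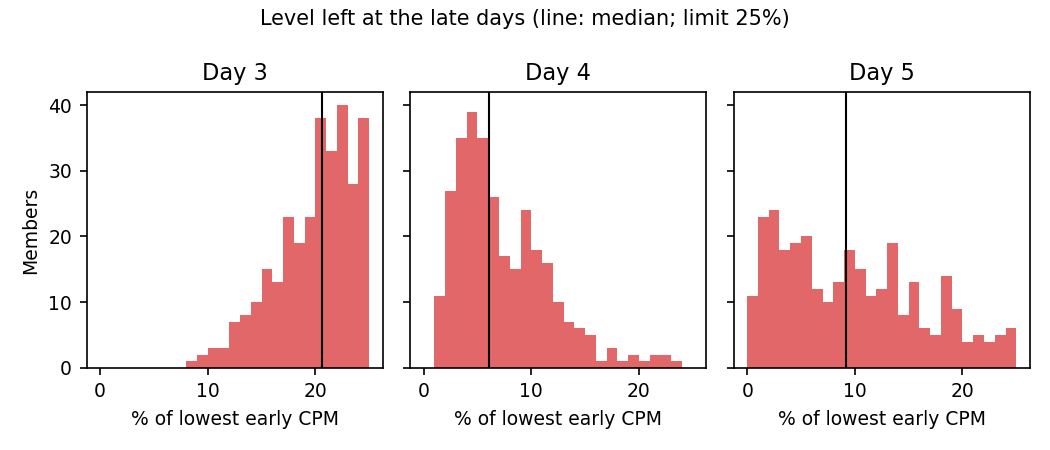
Number of members (bars, 1% wide) by CPM at day 3, day 4 and day 5 as a percent of the lowest early CPM, with the median as a black line. From left to right the median lies at 20.6%, 6.07% and 9.15%, and the rule ends all 3 panels at 25%.

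At 4-fold in place of 2-fold far fewer members were called in either direction outside the step to day 3. There were 5 between days 1 and 2, where 16.9% of all tested and 0.596% of the other early components were called, and 7 over the whole early period, where the shares were 20.6% and 1.37%. None was called between days 2 and 2.5, beside 4.34% and 0.0175%. After day 3 there were 104 at day 4, beside 13% and 7.11%, and 12 between days 4 and 5, beside 7.69% and 1.47%. All 104 were lower, as were the 5 and the 7 of the early days, while the shares pool both directions. The rule bears on these steps, as said above, so the shares are given as a description.

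The early and late changes were only weakly related across members. The log2 change from day 1 to day 2.5 and that from day 3 to day 4, which share no library, had a Pearson r of 0.18 and a Spearman rho of 0.15 over 304 members. The other 5707 early components gave 0.07 and 0.04. Of the 56 members called lower over the early days, 82.1% were called lower again from day 3 to day 4, and of the other 248, 74.6%. Mean early log2 level and the change from day 3 to day 4 had an r of -0.09. Components are not replicates and share these libraries, so the correlations are descriptions.

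The members were also set beside components that were held to day 3. The compared set had 20 CPM or more at days 1, 2, 2.5 and 3 and at most 25% of the lowest of these at days 4 and 5. It held 196 components, 26 of which were also members (8.55% of the members and 13.3% of that set). The other 170 had median levels of 117, 121 and 111 CPM on the early days, and of 55.2, 9.80 and 5.13 CPM on the late days. From day 1 to day 2, 1.76% of the 170 were called lower, against 13.5% of the members. The members' rule bears on this step, as said above, so the contrast is a description. With the 26 shared members kept in, 4.08% of the 196 were lower, near the 4.56% of the other early components. From day 4 to day 5, 44.7% were called lower and 0% higher, against 8.88% and 17.1% of the members. In the 170 the limit at day 5 left room for a 2-fold rise after day 4 in only 10, against 269 of the 304 members. The shares called higher therefore cannot be compared. Components that rose past the limit were left out, so the rules bear on the shares called lower too, and that contrast is a description. The steps from day 2.5 to day 4 are likewise fixed in part by the rules of both sets.

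The members' contigs were not used by the rule. The 304 members held 778 contigs, and 53.9% of the members were a single contig, against 45.3% of the other early components. Members of 6 or more contigs made up 7.89%, against 15.7%. In the set held to day 3, which includes 26 members, 50.5% were a single contig and 7.14% had 6 or more. Those shares are near the members' own. Seen the other way, members were 5.96% of the early components with 1 contig and 2.61% of those with more than 5, beside 5.06% over all. The longest contig of a member had a median of 2628.5 nt and ranged from 512 to 9520 nt, and that of the other early components had a median of 2549 nt. Members were between 3.85% (up to 1000 nt) and 5.49% (3000 to 5000 nt) of the early components in each class of length. They were between 4.54% and 5.76% in each class of early level. No test over components was made.

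The contigs within a member were compared between the early and the late days. Of the 568 member contigs with 60 or more counts over days 1, 2 and 2.5, 517 had a summed late CPM of at most 25% of their summed early CPM, and 359 met the limit of the rule on each late day by themselves. With 164 members a single contig and the sum of every member held under the limit, this follows in large part from the rule. In 140 members with 2 or more contigs, the contig with most early counts was also the one with most late counts in 111 (79.3%), near the 75.8% of the other early components with 2 or more. Its median share was 74.3% of the early counts and 66.2% of the late ones, and in the other early components 69.8% and 62.5%. The contig was picked for its early counts, so a lower late share is partly built in.

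In 6 members the early main contig held under 10% of the late counts. Among the 2 in which it had no late count at all is a member of 4 contigs. Its contig of 4324 nt had 56.6, 6.46 and 21.2 CPM on the early days and 0 counts from day 3 on. Its contig of 4336 nt had 0 counts at days 1 and 2.5 but 42.0 CPM at day 2, and 8.50, 2.32 and 2.26 CPM on the late days. The 2 contigs thus exchanged counts between days 1, 2 and 2.5, while the limit applies to their sum. The other 5 members were not all of this kind. Some members outside the 6 showed a like alternation. In 1 of them, of 3 contigs, the late main contig had 0, 171 and 6.91 CPM on the early days. It had 52.5, 26.2 and 7.66 CPM on the late days. Not all of the 29 members with another main contig late did so. Reads that match several contigs are divided among them by the program that made the counts. Between 61.9% (day 5) and 92.5% (day 1) of the members' nonzero contig counts were not whole numbers, against 39.2% (day 5) to 50.6% (day 1) over all contigs. The 2 sets were not matched for depth. Members were chosen for a high early level, and their share was lower on the days with fewer member counts. Nothing is read from this contrast.

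**Figure D5:**
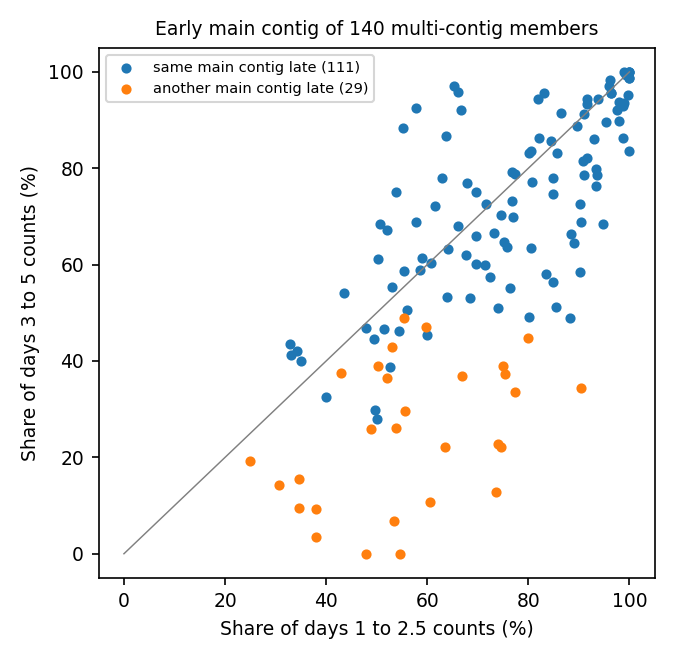
Share of the component's counts held by its early main contig in the early libraries (horizontal, %) and in the late libraries (vertical, %) for the 140 members with 2 or more contigs, with the line of equal shares. In 111 the same contig led late (blue) and in 29 another did (orange), and 2 members lie at 0% late.

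Library by library, the main contig of a member was not always the same. Among the 114 such members with 20 or more counts in every library, it was the same at days 1 and 2.5 in 103 and at days 2 and 3 in 100. It was the same at days 1 and 2 in 97, at days 2 and 2.5 in 92 and at days 2.5 and 3 in 87. The lowest was 60.5%, for days 3 and 5. In the other early components days 2.5 and 3 gave 76.4%, against 76.3% in the members, and days 4 and 5 gave 80.9%, against 64.0%. This last difference was not tested, and the members had few counts on these days. Pairs within days 1, 2.5 and 5 or within days 2, 3 and 4 had a median of 71.5% in the members. The other pairs had 64.9%, with overlapping ranges (67.5% to 90.4% and 60.5% to 85.1%). In the other early components the medians were 75.2% and 72.4%. The labels name no such sets, and whether the libraries differ in this way was not tested. The step from day 2.5 to day 3 would cross them.

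Some components share the first number of their identifier with a member. What that number stands for is not stated in the sources used here. The 304 members bore 285 such numbers, and 18 numbers were borne by 2 or 3 members, 37 in all. In 1 of these pairs both members had a mean early level of 340 CPM. Their log2 changes from day 2.5 to day 3 were -3.40 and -3.48. Levels were not alike in every pair: in another they were 455 and 32.1 CPM, with changes of -2.31 and -2.38. Another 356 tested components shared a number with a member. Of these, 53.1% were 2-fold lower and 7.87% higher at day 3 than at day 2.5, beside 33.1% and 15.5% of all tested components. Among the 130 of them with 20 CPM or more at the early days, 44.6% were lower, against 36.3% lower and 4.36% higher among the other early components. Whether components with a shared number are pieces of a single transcript was not tested, so members that share one may not be independent.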

How the data were processed

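The expected counts are the authors' estimates of fragments per contig, made with RSEM per the submitters' processing notes and not normalized. The deposited TPM values are per effective length, per the file headers, and served as an alternative. Not given in the sources used here are the RSEM version, the aligner and the assembler. The deposited FPKM were not used. No test with replicates was possible, so none was run. Summed counts of 145913 contigs gave 87262 components, rounded for intervals. Steps were called at 2-fold with an exact 95% Clopper-Pearson interval excluding 1, over 31119 components with 60 or more counts. The call was also run on simulated counts with counting error alone and 4-fold changes put in. That run cannot show how embryos or libraries vary. TMM factors came from edgeR 4.0.16 and size factors from DESeq2 1.42.0 (R 4.3.3), and other values from Python 3.11.15, numpy 2.4.6, pandas 2.3.3 and scipy 1.17.1. A few members were named by ID, namely the 2 highest and 2 lowest in the ratio of day 2.5 to day 1. Others were described by distance from a threshold or by rank of early level. Ranks of the ratios of day 3 to day 2.5 and of day 5 to day 3 were used as well. The contig examples, the member called higher at day 2.5 and the 2 pairs sharing a number were chosen after their values were seen. The members, sets and rules were chosen with earlier results of these data known. Alternatives covered scaling, TPM, floors, limits, pseudocounts, single contigs and leaving out libraries.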

Additional observations from a re-analysis of the deposited data

How the results depend on the processing

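The number of members depended on scaling and limits. In place of 304 it was 82 (TMM), 54 (size factors of DESeq2), 499 (deposited TPM), 198 from 40 CPM, 1605 at 50% and 12 at 12.5% of the lowest early level. All 82 and all 54 were among the 304, as were 269 of the 499. Leaving out 1 library at a time gave 306 (day 4) to 1240 (day 3), with 533 without day 2.5. Alternatives added after seeing the data were the rule on days 1, 2.5 and 5 alone, which gave 1512, and on days 2, 3 and 4 alone, which gave 739. The median log2 change from day 2.5 to day 3, -2.41, became -1.95 (TMM), -1.88 (size factors of DESeq2) and -1.96 (5 CPM added). From day 3 to day 4, -1.67 became -0.81 with 5 CPM added, which shrinks the changes of low components. At 4-fold in place of 2-fold, 5 members were called at the step 1 to 2, 0 at 2 to 2.5, 7 at 1 to 2.5, 104 at 3 to 4 and 12 at 4 to 5 (all in days). The shares of all tested and of the other early components at 4-fold are given above. The filter of 60 counts was also dropped, which adds components with fewer counts. The background of both directions together was then 16.0% against 29.9% (days 1 to 2) and 7.99% against 14.5% (2 to 2.5). It was 20.6% against 33.6% (1 to 2.5) and 24.9% against 48.6% (2.5 to 3). It was 17.9% against 35.9% (3 to 4), 13.4% against 25.1% (4 to 5) and 21.9% against 43.6% (3 to 5). In TPM the members held 4.60%, 3.23%, 2.80%, 0.503%, 0.164% and 0.175% of the libraries from day 1 to day 5. Unless given, the cause was not tested. None of the other 40 planned values changed direction, but some moved: 446 members from 10 CPM and 409 single contigs met the rule, and with the size factors of DESeq2 the median log2 change after day 4 was 0.01 in place of 0.24. No paired analysis was possible because a stage is a single library. Counts under 3 cannot show absence.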
